A study of Mus musculus with 18 samples.

Results

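The genes described here are 33 genes of striated muscle, taken from a list of skeletal muscle contractile and stress genes, out of the 54752 genes of the count table. They were matched by mouse symbol through the GENCODE M21 annotation, and each met 1 protein-coding row. The study measured the effect of Cd276, the gene of the B7 family surface protein B7-H3, in mouse ovarian cancer cells and in tumors grown from them. Its 18 RNA sequencing libraries form 6 groups of 3. These are cultures of HM-1 cells (strain B6C3F1) and ID8 cells (strain C57BL6), and day 10 tumors from 1000000 HM-1 cells placed in the skin of B6C3F1 mice, each with the genotype control or Cd276KO. The labels give no other agent or allele, no age or sex of the mice and no number of clones, and do not say how the knockout was made or whether a tumor library came from 1 mouse. Replicates are titled biological, but how they were kept separate is not described, and each p-value is against the spread among them.

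Striated muscle contracts by sliding thin filaments of actin, nebulin and troponin past thick filaments of myosin, in sarcomeres held together by titin and anchored at Z-discs. Calcium released from the sarcoplasmic reticulum starts each contraction, and creatine kinase and glycogen breakdown supply the ATP. A separate group of muscle proteins responds to stretch, load or injury, and a thin muscle sheet, the panniculus carnosus, underlies the skin of the mouse.

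Total counts were 17349082 to 30959773 per library, and 17349082 to 24711051 in tumors. Levels are in CPM, counts per 1000000 of a library's total. Cd276 was at 142, 107 and 116 CPM in control tumors 1, 2 and 3 and 73.2, 97.2 and 89.5 CPM in tumors 1, 2 and 3 labelled Cd276KO. All tumors labelled Cd276KO were below all controls, but the difference was not past the threshold of an adjusted p under 0.05 (log2 fold change -0.45 ± 0.14 SE, adjusted p = 0.105 in edgeR), and a gene count does not show which exon was targeted. Here and below, the test is edgeR's quasi-likelihood test, with p-values adjusted by the Benjamini-Hochberg method over all genes tested. Control tumor 3 stood apart from control tumors 1 and 2, with a chi-square value per gene of 134 and 81.3, against 41.1 between those libraries. Summed over 14 epidermis markers its level was 254 CPM, against 9.92 to 13.9 CPM in the other tumors. HM-1 control culture 1 also stood apart, at 64.9 and 63.9 from the other libraries of its group.

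Promoter sequence was available for 23 of the 33 genes in RefSeq for GRCm38.p6, and 6 are shown as examples. They cover the skeletal actin gene Acta1, the adult fast myosins Myh1 and Myh4, the titin gene Ttn, the small heat shock protein gene Hspb7 and, for contrast, the enolase gene Eno3, whose level did not follow the others. Each is the 250 bases before the start of the gene, 5′ to 3′ on the gene's own strand, with CArG boxes (bound by serum response factor) and MEF2 sites in capitals. In the order shown they lie at chr8:123894776-123895025 (minus strand), chr11:67199852-67200101 (plus strand), chr11:67237562-67237811 (plus strand), chr2:76982548-76982797 (minus strand), chr4:141420529-141420778 (plus strand) and chr11:70656926-70657175 (plus strand).
Acta1: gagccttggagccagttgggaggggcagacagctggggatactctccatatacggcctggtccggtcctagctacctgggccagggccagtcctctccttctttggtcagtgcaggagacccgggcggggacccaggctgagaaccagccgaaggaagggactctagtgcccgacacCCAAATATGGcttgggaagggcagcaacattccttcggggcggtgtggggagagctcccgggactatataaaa
Myh1: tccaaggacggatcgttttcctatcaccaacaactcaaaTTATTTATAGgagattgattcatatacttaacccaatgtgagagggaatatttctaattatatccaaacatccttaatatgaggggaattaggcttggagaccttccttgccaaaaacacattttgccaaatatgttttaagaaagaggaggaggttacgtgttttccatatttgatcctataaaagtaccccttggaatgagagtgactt
Myh4: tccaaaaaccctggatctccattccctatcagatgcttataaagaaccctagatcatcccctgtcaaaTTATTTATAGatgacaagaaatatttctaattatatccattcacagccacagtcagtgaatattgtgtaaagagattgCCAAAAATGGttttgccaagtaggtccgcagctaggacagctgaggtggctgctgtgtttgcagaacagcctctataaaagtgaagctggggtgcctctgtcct
Ttn: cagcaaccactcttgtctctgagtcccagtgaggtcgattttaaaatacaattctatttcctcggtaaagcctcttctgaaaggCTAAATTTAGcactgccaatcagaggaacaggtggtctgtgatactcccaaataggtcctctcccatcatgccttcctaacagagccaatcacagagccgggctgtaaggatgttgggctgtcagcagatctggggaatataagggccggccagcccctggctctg
Hspb7: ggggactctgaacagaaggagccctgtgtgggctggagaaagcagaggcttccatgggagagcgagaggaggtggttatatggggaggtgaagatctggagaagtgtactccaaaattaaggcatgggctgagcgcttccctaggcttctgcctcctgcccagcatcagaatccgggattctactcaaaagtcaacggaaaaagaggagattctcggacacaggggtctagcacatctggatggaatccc
Eno3: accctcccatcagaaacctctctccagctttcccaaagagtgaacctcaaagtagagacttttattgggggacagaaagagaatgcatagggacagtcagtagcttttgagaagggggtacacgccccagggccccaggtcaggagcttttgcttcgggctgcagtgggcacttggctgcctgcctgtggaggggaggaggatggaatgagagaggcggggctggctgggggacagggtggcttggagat
Both strands were searched and matches of different motifs may overlap. A CArG box was in 13.0% of the members matched (Acta1, Ldb3 and Myh4) and in 1.47% of 32851 promoters of the same length. A MEF2 site was in 13.0% (Myh1, Myh4 and Ttn) against 2.92%. The MCAT motif CATTCC was in 30.4% of the members against 12.6%, the motif TATAAA in 17.4% against 12.4%, and the E-box CANNTG, to which Myod1 and Myog can bind, in 78.3% against 66.2%. No CArG box or MEF2 site was found in the windows of Hspb7 and Eno3. The windows of Myh2 and Csrp3, which are not shown, held none either. Of the members with either motif only Ldb3 is not shown, so the 6 do not represent the 23. Among the 6, only Hspb7 was called in the tumor comparison below, as were Myh2 and Csrp3. A match describes the letters only, and binding was not measured. Tnni2, Xirp1, Tnnt3, Myoz1, Trdn, Actn3, Myo18b, Tcap, Neb and Abra have no sequence shown.

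Most of the 33 genes were near 0 in control tumors 2 and 3, intermediate in control tumor 1 and in tumor 1 labelled Cd276KO, and highest in tumors 2 and 3 labelled Cd276KO. Their summed level was 461, 264 and 313 in the controls and 464, 1731 and 1782 CPM in the tumors labelled Cd276KO. Without Eno3, the largest contributor, the sum was 223, 15.6 and 29.2 in the controls and 222, 1498 and 1539.7 CPM. Control tumor 1 and tumor 1 labelled Cd276KO thus had nearly the same sum under different labels, and on both sums control tumors 2 and 3 were the lowest. In bulk libraries, fewer muscle cells and less RNA per muscle cell cannot be told apart. Of the 33 genes, 31 were highest in tumor 2 or 3 labelled Cd276KO, and 29 were higher in control tumor 1 than in both other controls. The exceptions to the first pattern were Eno3 and Ankrd1.

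In the tumor comparison, 6 of the 32 members tested were higher in tumors labelled Cd276KO and 0 were lower, where 2.20% of the 15345 genes tested were called higher and 3.18% lower. The 6 were Xirp1, Abra, Myh2, Csrp3, Hspb7 and Myo18b. The median log2 fold change of the members was 3.53, against -0.03 over all genes tested, and it was above 0 for 30 members. All 3 tumors labelled Cd276KO were above all 3 controls for 18 of the 32 members and below them for 0, where 14.2% of all genes tested were above and 20.6% below. Of the 32, 25 reached the filter on low counts (0.494 CPM in 3 libraries) only through the tumors labelled Cd276KO, as did 798 of the 15345 genes tested. All 6 called members are among these 25, so their direction was set in part by the filter and the counts and median are a description. The other 7 were Eno3, Ankrd1, Mylpf, Neb, Pygm, Ryr1 and Ttn, of which none was called. Myh3, embryonic myosin, had 1 or 2 counts in each tumor and was not tested. DESeq2 called 14 of 31 members higher (background 5.46%), and 1 fit over all 18 libraries called 28 of 32 (background 11.2%), each list holding the 6 genes named. The count was 3 with limma voom and sample quality weights (Ryr1, Tcap and Trdn; background 9.40%), and 2 (Myh2 and Tcap; background 1.27%) without the filter on low counts. The calls also rested on single libraries. Leaving out control tumor 3 left 1 member (Myh2; background 4.82%), and leaving out control tumor 2 left 0 (background 0.750%), with 17 members at an unadjusted p under 0.05. Without tumor 1 labelled Cd276KO, Abra was the only gene called of all 15882 tested (background 0.00630%). Without tumor 2 or 3 labelled Cd276KO no gene at all was called (background 0.00%), with 15 and 14 members at an unadjusted p under 0.05, so that there the whole comparison lost its calls. Leaving out control tumor 1 gave 11 members called (background 0.734%). The backgrounds are of adjusted calls, and the share of all genes at an unadjusted p under 0.05 was not counted here or below.

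**Figure D1:**
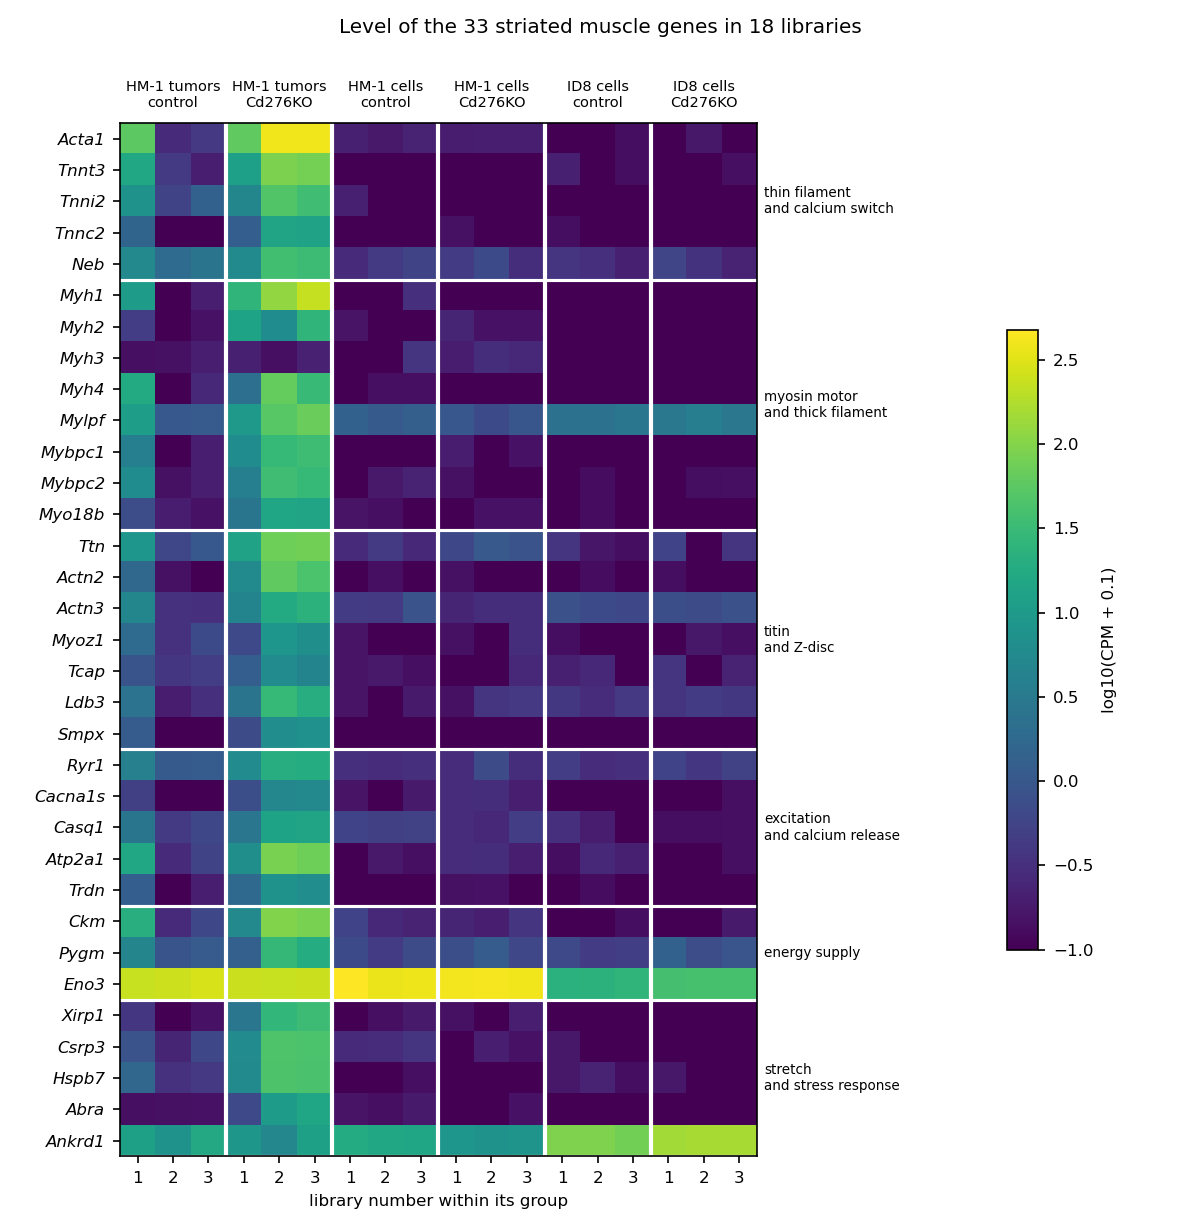
Level of each of the 33 genes (rows, grouped by role) in the 18 libraries (columns), as log10(CPM + 0.1) from dark to light. Among the 6 tumors, the lightest cell is in tumor 2 or 3 labelled Cd276KO for 31 genes, and 29 genes are under 1 CPM in all 12 cultures.

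**Figure D2:**
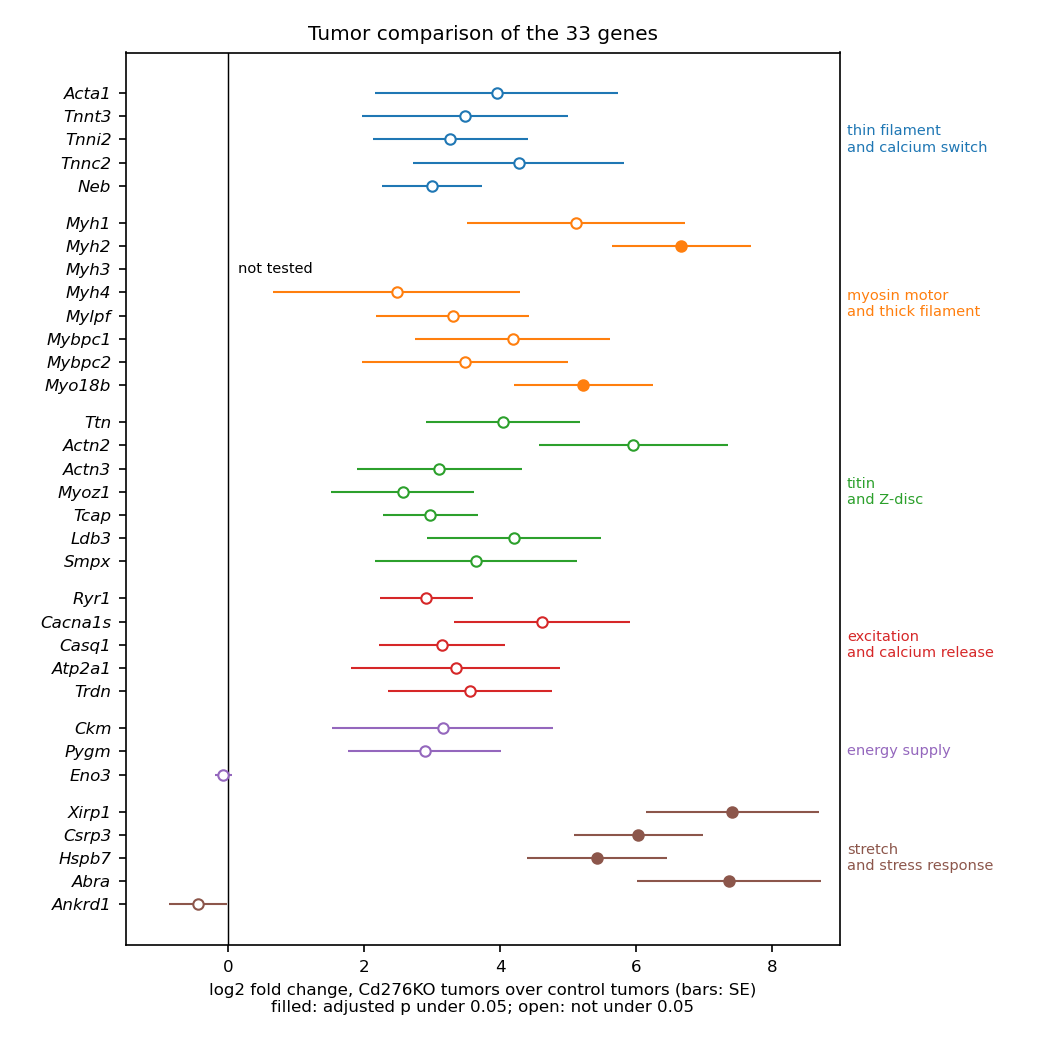
Log2 fold change of tumors labelled Cd276KO over control tumors for each gene, with its SE as a bar and n = 3 per group. Filled points mark the 6 genes with an adjusted p under 0.05, of which 4 are stretch and stress genes and 2 belong to the myosin group. All 6 reached the filter on low counts only through the tumors labelled Cd276KO. The points of Eno3 and Ankrd1 lie just below 0.

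Among the 5 thin filament genes none was called, and all 5 had a fold change above 0, with a median log2 value of 3.48. Skeletal alpha-actin, Acta1, the main protein of the thin filament, whose promoter window holds a CArG box, was at 55.6, 0.188 and 0.313 CPM in control tumors 1, 2 and 3 and 59.4, 393 and 393 CPM in tumors 1, 2 and 3 labelled Cd276KO. Control tumor 1 lay close to tumor 1 labelled Cd276KO and far above the other controls, so that the groups barely separated (log2 fold change 3.95 ± 1.78 SE, adjusted p = 0.226 in edgeR). Per length of exon, Acta1 had the highest mean tumor level of the 33 genes after Eno3, at 97.9 against 143 counts per kb and 1000000 counts. Tnnt3, fast troponin T, which ties the troponin complex to tropomyosin, was at 16.1, 0.328 and 0.104 CPM in the controls and 11.96, 89.2 and 81.04 CPM in the tumors labelled Cd276KO. Here control tumor 1 exceeded tumor 1 labelled Cd276KO and the groups overlapped (log2 fold change 3.48 ± 1.52 SE, adjusted p = 0.214 in edgeR). Tnni2 and Tnnc2, the inhibitory and calcium-binding subunits of fast troponin, had log2 fold changes of 3.27 and 4.27. Neb, the giant ruler protein nebulin, had the smallest SE of the group (log2 fold change 3.00 ± 0.74 SE, adjusted p = 0.0654 in edgeR), with groups that did not overlap.

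Of the 8 genes of the myosin motor and thick filament, 7 could be tested, and Myh2 and Myo18b rose. Over all genes tested, 2.20% were called higher. Both genes reached the filter on low counts only through the tumors labelled Cd276KO, so their direction was set in part by it. Myh2, the myosin heavy chain of fast 2A fibers, was at 0.364, 0 and 0.0521 CPM in control tumors 1, 2 and 3 and 13.7, 6.003 and 25.8 CPM in tumors 1, 2 and 3 labelled Cd276KO. It was nearly absent from the controls and highest in tumor 3 labelled Cd276KO, and tumor 1 was above tumor 2 for this gene (log2 fold change 6.67 ± 1.02 SE, adjusted p = 0.0272 in edgeR). Myo18b, an unconventional myosin needed to build sarcomeres, was at 0.647, 0.0938 and 0.0521 CPM in the controls and 2.56, 14.6 and 13.9 CPM in the tumors labelled Cd276KO. The groups did not overlap, although control tumor 1 was again the highest control (log2 fold change 5.23 ± 1.02 SE, adjusted p = 0.0398 in edgeR). Myh2 kept its call without control tumor 1 or 3 and lost it without each of the other 4 libraries (edgeR adjusted p 0.0525 to 0.154), and Myo18b kept it only without control tumor 1 (0.0450, otherwise 0.0542 to 0.178). Myh1, the heavy chain of 2X fibers, was at 10.7, 0 and 0.104 CPM in the controls and 25.5, 122 and 229 CPM in the tumors labelled Cd276KO and did not pass the test (log2 fold change 5.12 ± 1.60 SE, adjusted p = 0.110 in edgeR). Myh4, the heavy chain of 2B fibers, whose window holds both a CArG box and a MEF2 site, was at 17.9, 0 and 0.156 CPM in the controls and 2.11, 65.3 and 31.5 CPM in the tumors labelled Cd276KO. Tumor 1 labelled Cd276KO was below control tumor 1, and this member had one of the smallest fold changes of the group (log2 fold change 2.48 ± 1.81 SE, adjusted p = 0.445 in edgeR). Mylpf, the fast regulatory light chain, was at 11.4, 0.938 and 1.04 CPM in the controls and 9.79, 52.3 and 68.3 CPM in the tumors labelled Cd276KO (log2 fold change 3.31 ± 1.12 SE, adjusted p = 0.133 in edgeR). Mybpc1 and Mybpc2, slow and fast myosin-binding protein C, had log2 fold changes of 4.18 and 3.49. The myosin heavy chains share sequence: 25.4% of the 50-base words of Myh1 transcripts, 22.9% of those of Myh2 and 18.9% of those of Myh4 also occur in another gene, so reads may have been split or dropped between them.

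The 3 adult fast myosins were not in the same proportion in every tumor. Of their counts per exon length, Myh4 made up 63.1% in control tumor 1, 5.58% in tumor 1 labelled Cd276KO, 35.1% in tumor 2 and 11.7% in tumor 3. Myh1 took 35.8%, 63.8%, 62.1% and 80.3% of the same libraries in that order. Myh2 took 1.08%, 30.6%, 2.72% and 8.04%. As a share of the 3, 2B myosin was thus highest in control tumor 1 and 2A myosin in tumor 1 labelled Cd276KO, whereas by level Myh4 was highest in tumor 2 and Myh2 in tumor 3 labelled Cd276KO. As shares of plain counts, Myh2 was 1.26% of 717 (exact binomial 95% interval 0.576 to 2.37%) in control tumor 1 and 33.2% of 744 (29.8 to 36.7%) in tumor 1 labelled Cd276KO. These intervals cover counting error only, and with 1 control in which the mix could be read there is no comparison of groups. Control tumor 2 had 0 counts of the 3 genes and control tumor 3 had 6. This mix was chosen for description after its values were seen.

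**Figure D3:**
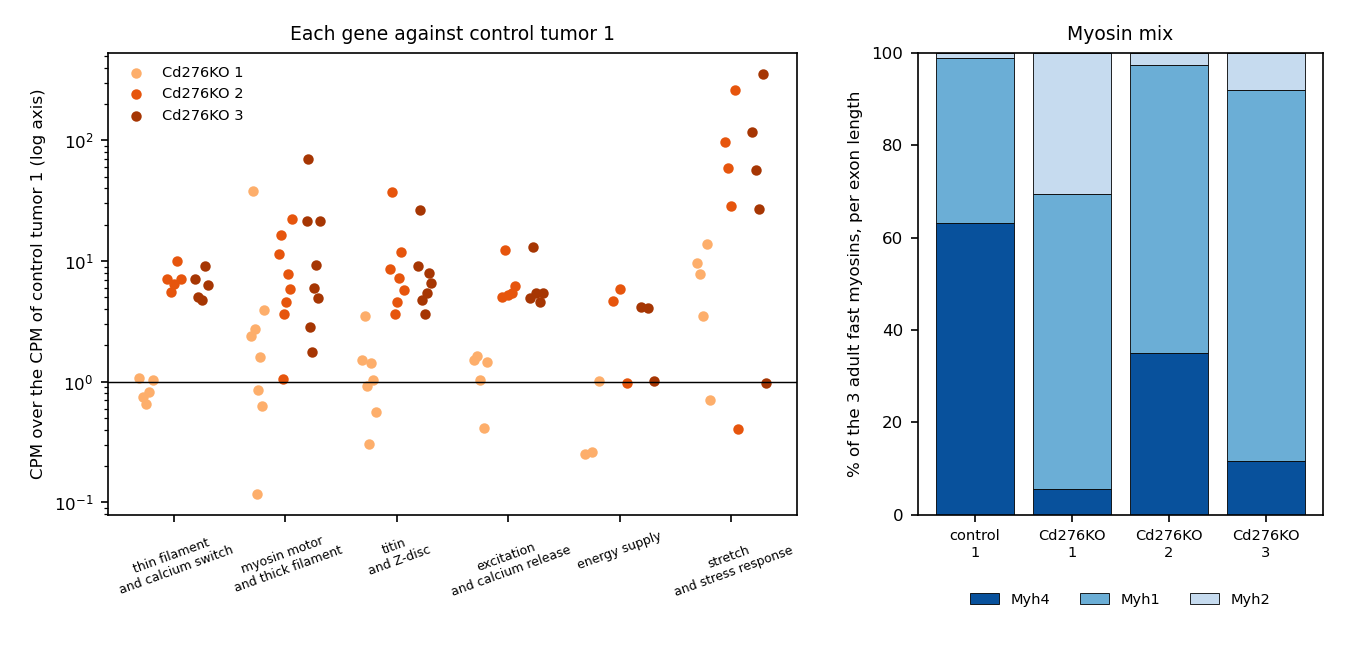
Left, CPM of each member in tumors 1, 2 and 3 labelled Cd276KO divided by its CPM in control tumor 1 (log axis, 1 point per gene), by role. Right, percentages of Myh4, Myh1 and Myh2 per exon length in the 4 tumors with more than 10 counts of them; in tumor 1 labelled Cd276KO Myh2 lies highest at 37.7, Myo18b (3.95) and Actn2 (3.51) lie among the 4 stretch and stress genes above 1 (3.51 to 13.7), and the share of Myh2 is 30.6%.

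None of the 7 titin and Z-disc genes passed the test, and all 7 fold changes were above 0 (median 3.65). Ttn, the titin spring that spans from Z-disc to M-line, was at 8.62, 0.516 and 0.938 CPM in control tumors 1, 2 and 3 and 13.1, 73.95 and 78.1 CPM in tumors 1, 2 and 3 labelled Cd276KO. All tumors labelled Cd276KO were above all controls, the nearest pair being tumor 1 and control tumor 1 (log2 fold change 4.05 ± 1.14 SE, adjusted p = 0.0874 in edgeR). Actn2, the alpha-actinin that crosslinks actin at the Z-disc, was at 1.62, 0.0469 and 0 CPM in the controls and 5.68, 60.03 and 42.7 CPM in the tumors labelled Cd276KO. It did not overlap between groups and came close to the threshold (log2 fold change 5.96 ± 1.39 SE, adjusted p = 0.0581 in edgeR). Tcap, which caps titin at the Z-disc, was lower in level but had a small SE (log2 fold change 2.98 ± 0.69 SE, adjusted p = 0.0580 in edgeR). Actn3, the fast-fiber alpha-actinin, had a log2 fold change of 3.11, and Myoz1, a calcineurin-binding Z-disc protein, one of 2.57. Those of Ldb3, which stabilizes the Z-disc, and Smpx, a small muscle protein, were 4.21 and 3.65.

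In the group of excitation and calcium release, none of 5 genes passed the test, and 4 were above all controls in all tumors labelled Cd276KO, as were 14.2% of all genes tested. Ryr1, the calcium release channel of the sarcoplasmic reticulum, was at 3.84, 0.985 and 1.09 CPM in control tumors 1, 2 and 3 and 5.79, 19.3 and 19.02 CPM in tumors 1, 2 and 3 labelled Cd276KO. Its controls were nearer to the other group than those of most members, and its SE was small (log2 fold change 2.92 ± 0.68 SE, adjusted p = 0.0583 in edgeR). Atp2a1, the pump that returns calcium to the reticulum of fast fibers, was at 16.1, 0.188 and 0.469 CPM in the controls and 6.73, 87.4 and 74.5 CPM in the tumors labelled Cd276KO. Control tumor 1 exceeded tumor 1 labelled Cd276KO, and the groups overlapped (log2 fold change 3.35 ± 1.54 SE, adjusted p = 0.233 in edgeR). Cacna1s, the voltage sensor that opens Ryr1, had a log2 fold change of 4.62, Casq1, the calcium-storing calsequestrin, 3.14, and Trdn, triadin, which links them, 3.56.

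The 3 energy genes did not behave alike. Ckm, muscle creatine kinase, was at 20.9, 0.188 and 0.521 CPM in control tumors 1, 2 and 3 and 5.29, 97.2 and 86.7 CPM in tumors 1, 2 and 3 labelled Cd276KO. Control tumor 1 was above tumor 1 labelled Cd276KO (log2 fold change 3.15 ± 1.62 SE, adjusted p = 0.280 in edgeR). Pygm, muscle glycogen phosphorylase, showed the same order of these libraries (log2 fold change 2.89 ± 1.12 SE, adjusted p = 0.173 in edgeR). Eno3, beta-enolase of glycolysis, was at 238, 249 and 284 CPM in the controls and 242, 233 and 242 CPM in the tumors labelled Cd276KO. Its level was nearly even over the 6 tumors (log2 fold change -0.07 ± 0.13 SE, adjusted p = 0.777 in edgeR), and its sign turned without control tumor 3 (0.053) and in limma voom (0.0043). HM-1 cultures, the cells from which the tumors were grown, had 478, 368 and 381 CPM of Eno3 in controls, above every tumor.

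Of the 5 stretch and stress genes, 4 rose and the fifth, Ankrd1, did not pass, where 2.20% of all genes tested were called higher. The 4 reached the filter on low counts only through the tumors labelled Cd276KO. Their direction was thus set in part by the filter, and the count is a description. Xirp1, an actin-binding protein of muscle attachment and repair sites, was at 0.283, 0 and 0.0521 CPM in control tumors 1, 2 and 3 and 2.73, 27.6 and 33.3 CPM in tumors 1, 2 and 3 labelled Cd276KO. Every tumor labelled Cd276KO was above every control, with tumor 1 the lowest of them (log2 fold change 7.42 ± 1.27 SE, adjusted p = 0.0327 in edgeR). Csrp3, the muscle LIM protein of the Z-disc stretch response, was at 0.769, 0.141 and 0.521 CPM in the controls and 5.95, 45.6 and 43.6 CPM in the tumors labelled Cd276KO. The groups were apart by several-fold at their nearest libraries (log2 fold change 6.04 ± 0.95 SE, adjusted p = 0.0279 in edgeR). Hspb7, a small heat shock protein of striated muscle, was at 1.54, 0.234 and 0.313 CPM in the controls and 5.40, 44.2 and 41.6 CPM in the tumors labelled Cd276KO (log2 fold change 5.42 ± 1.03 SE, adjusted p = 0.0385 in edgeR). Abra, an actin-binding activator of serum response factor, was at 0.0405, 0.0469 and 0.0521 CPM in the controls and 0.556, 10.5 and 14.4 CPM in the tumors labelled Cd276KO. The 3 controls held 3 counts in all against 507, 187-fold more per library total (counting interval 63.8 to 912) (log2 fold change 7.36 ± 1.35 SE, adjusted p = 0.0365 in edgeR). Ankrd1, a titin-binding ankyrin repeat protein induced by stretch, was at 12.3, 7.32 and 16.3 CPM in the controls and 8.79, 5.02 and 12.2 CPM in the tumors labelled Cd276KO. Its groups overlapped in part (log2 fold change -0.44 ± 0.43 SE, adjusted p = 0.562 in edgeR), and limma voom gave 0.23. Under leaving out 1 library at a time the fold changes of the 4 genes that rose stayed above 0, and the adjusted p of Xirp1 was 0.0550 to 0.154, of Csrp3 0.0547 to 0.154 and of Hspb7 0.0505 to 0.172. For Abra it was 0.0407 without tumor 1 labelled Cd276KO and 0.0769 to 0.155 without each of the others.

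Levels were also set against control tumor 1, the control with most muscle gene counts, as values with no test. The 27 sarcomere, calcium and energy genes other than Eno3 had a median ratio of 1.03 in tumor 1 labelled Cd276KO, 6.24 in tumor 2 and 5.48 in tumor 3. The 4 stress genes other than Ankrd1, which was set apart after its values were seen, had 8.68, 78.4 and 87.1 in the same tumors, and Ankrd1 had 0.712, 0.407 and 0.985. These ratios rest on 1 count of Abra, 7 of Xirp1, 19 of Csrp3 and 38 of Hspb7 in that 1 control library. Genes of other roles also had high ratios, as Myh2 with 37.7, 16.5 and 70.7 and Actn2 with 3.51, 37.1 and 26.4. Counts of these 4 genes were 1.67% of those of the 20 contractile genes (thin filament, myosin and Z-disc groups) in control tumor 1. In tumors 1, 2 and 3 labelled Cd276KO they were 8.39%, 11.6% and 11.4%. In control tumors 2 and 3 they were 7.89% and 11.4%, but on only 9 counts against 114 and 18 against 158. As a share of both groups of counts, control tumor 1 had 1.64% (exact binomial 95% interval 1.27 to 2.08%) and control tumor 2 had 7.32% (3.40 to 13.4%). The low value was thus found in 1 of 3 controls. Control tumor 3 lay among the tumors labelled Cd276KO. Control tumor 2 was below all of them, but its interval holds their shares (7.74%, 10.4% and 10.2%). With Ankrd1 included, the percentages were 9.48, 145 and 209 in the controls and 13.4, 12.01 and 12.4 in the tumors labelled Cd276KO, since Ankrd1 made up most of the stress counts where muscle counts were few. With 3 libraries against 3 an exact permutation p cannot be below 0.1, and no test was made of these ratios.

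Of the 19 genes of satellite cells and regeneration, 10 could be tested and 6 of these were higher in tumors labelled Cd276KO, against 2.20% of all genes tested. Of the 10, 7 passed the filter only through those tumors, so that a fall could hardly have been seen and the count is a description. Satellite cells are the stem cells of muscle, and after injury their progeny switch on Myod1 and then Myog before they fuse into new fibers. Myog, which starts the final differentiation, was at 0.0809, 0 and 0 CPM in control tumors 1, 2 and 3 and 2.95, 2.30 and 2.997 CPM in tumors 1, 2 and 3 labelled Cd276KO. The tumors labelled Cd276KO were within a narrow range, and the controls held 2 counts in all against 159, 88.2-fold more per library total (counting interval 24.0 to 734) (log2 fold change 6.30 ± 0.76 SE, adjusted p = 0.0206 in edgeR). Mybph, myosin-binding protein H, was at 0.202, 0 and 0 CPM in the controls and 1.67, 8.26 and 12.4 CPM in the tumors labelled Cd276KO (log2 fold change 6.56 ± 1.21 SE, adjusted p = 0.0364 in edgeR). The other 4 called genes are named after their values were seen. Myod1 had 56 counts against 1 in the controls (ratio 62.1, interval 10.7 to 2496), Myh8, perinatal myosin, 68 against 1 (75.4, 13.1 to 3022) and Myf6 81 against 3 (29.9, 9.89 to 148). Des, desmin, the intermediate filament of muscle, was at 25.7, 10.6 and 15.7 CPM in the controls and 48.5, 95.7 and 114 CPM in the tumors labelled Cd276KO (log2 fold change 2.34 ± 0.41 SE, adjusted p = 0.0335 in edgeR). The stem cell genes Pax7 and Myf5 had 5 and 4 counts in the tumors labelled Cd276KO and 0 in the controls. With 3 counts over the group as the floor, they were at least 1.85-fold and 1.48-fold higher. HM-1 cultures labelled Cd276KO had 2 counts of Pax7 (ratio 2.54, interval 0.417 to 26.7) and 0 of Myf5, so Pax7 could not be told apart from the cultures. Myog was called without each control in turn, at an adjusted p of 0.0290, 0.0430 and 0.00634, and not without each tumor labelled Cd276KO (0.0812 to 0.137). The other 5 lost their call without at least 1 control and without each tumor labelled Cd276KO, with adjusted p up to 0.182.

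Myog had 53, 54 and 52 counts in tumors 1, 2 and 3 labelled Cd276KO, while their contractile counts were 3136, 26005 and 20294. Per 10000 contractile counts, Myog was at 169 in tumor 1 (exact 95% interval 126 to 222), 20.8 in tumor 2 (15.6 to 27.1) and 25.6 in tumor 3 (19.1 to 33.6). Control tumor 1, with 3902 contractile counts, had 5.13 (0.621 to 18.5). Myh8 ran in the same order, at 54.2 per 10000 in tumor 1 labelled Cd276KO, 9.61 in tumor 2 and 12.8 in tumor 3, with 0 counts in control tumor 1 (up to 9.46). Its single count in control tumor 3 came to 63.3 on 158 contractile counts (1.59 to 358), an interval that holds all of these values. Myod1 was at 31.9 (15.3 to 58.7), 5.77 (3.23 to 9.52) and 15.3 (10.4 to 21.7) per 10000 in tumors 1, 2 and 3 labelled Cd276KO. Control tumor 1 had 2.56 (0.0649 to 14.3) from 1 count, an interval that holds the value of tumor 2 labelled Cd276KO. Mybph ran otherwise, at 95.7 (64.4 to 137), 74.6 (64.4 to 85.9) and 106 (92.2 to 121) in the same tumors. Between these tumors it varied less than Myog, Myh8 or Myod1. Control tumor 1 was lower, at 12.8 (4.16 to 29.9). Control tumors 2 and 3 had 0 counts of Myog, Myod1 and Mybph on 114 and 158 contractile counts. The upper bounds there, 329 and 236, lie above all values given for these genes. These ratios were chosen after their values were seen, and their intervals cover counting error only.

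**Figure D4:**
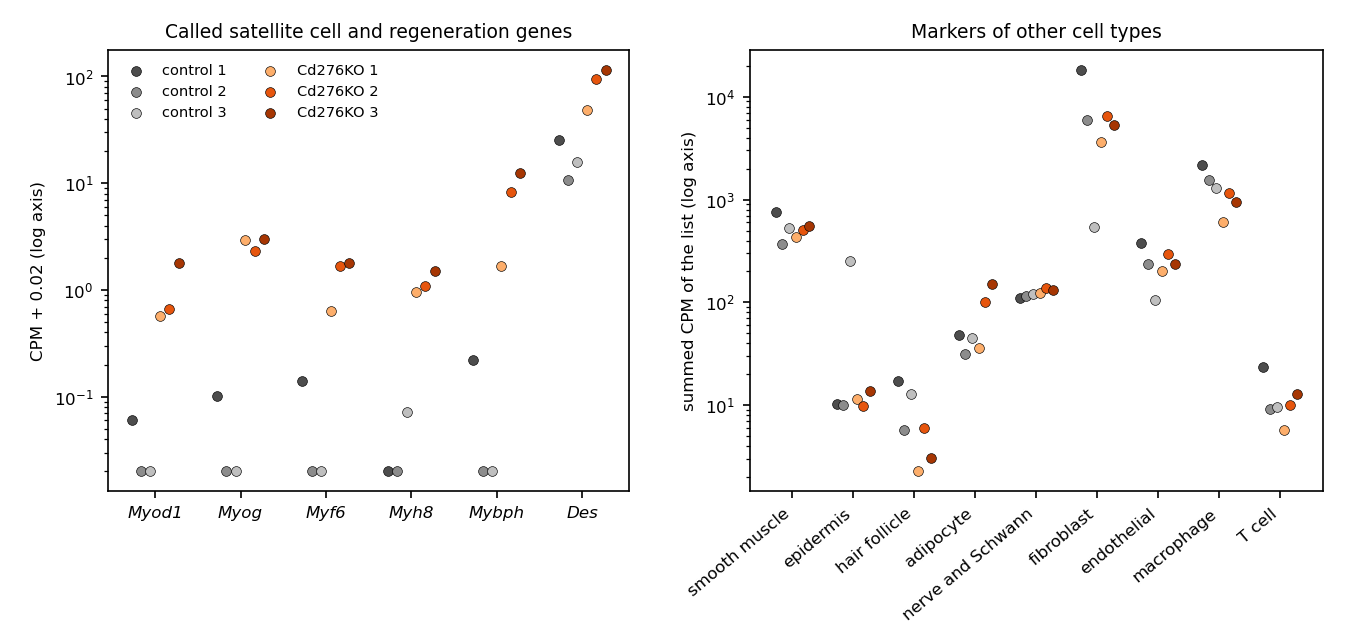
Left, CPM + 0.02 (log axis) of the 6 called satellite cell and regeneration genes in each tumor; the 3 tumors labelled Cd276KO lie above the 3 controls for each gene. Right, summed CPM (log axis) of 9 marker lists of other cell types in each tumor, where control tumor 3 has an epidermis sum of 254 and tumors 2 and 3 labelled Cd276KO have the highest adipocyte sums.

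Among 27 other fast-fiber genes tested, of which 18 would not have passed the filter on the controls alone, 4 were higher and 0 lower (median 2.84). The background for each list in this paragraph was 2.20% of all genes tested called higher and 3.18% lower. Klhl40, a partner of nebulin, was at 0.364, 0.0469 and 0.104 CPM in control tumors 1, 2 and 3 and 1.45, 6.94 and 10.4 CPM in tumors 1, 2 and 3 labelled Cd276KO (log2 fold change 5.11 ± 0.95 SE, adjusted p = 0.0377 in edgeR). Asb5, a muscle ubiquitin ligase subunit, had a log2 fold change of 5.03 (SE 0.98, edgeR adjusted p = 0.0399). The other called genes, Synpo2l and Cacng1, had 4.32 and 3.21 and are named after their values were seen. Of 15 atrophy and muscle stress genes tested, 4 would not have passed the filter on the controls alone. All 3 tumors labelled Cd276KO were above all 3 controls for 7 of the 15 and below them for 4. Over all genes tested these shares were 14.2% and 20.6%. The list median was 0.65, and 3 genes were called higher and 0 lower. These were Ankrd2, a stretch-responsive relative of Ankrd1 (log2 fold change 5.68 ± 1.00 SE, adjusted p = 0.0340 in edgeR), and the small heat shock proteins Cryab (log2 fold change 2.71 ± 0.53 SE, adjusted p = 0.0400 in edgeR) and Hspb6 (log2 fold change 1.12 ± 0.24 SE, adjusted p = 0.0483 in edgeR), the last named after its values were seen. Of 13 other muscle energy genes and 14 slow-fiber and cardiac genes 0 were called, with medians of 1.03 and -0.06. In the last list, Tpm3 and Atp2a2 had the highest levels, and both are also expressed outside muscle. Each call in this paragraph was lost when tumor 1, 2 or 3 labelled Cd276KO was left out, at edgeR adjusted p from 0.0682 to 0.206, and without control tumor 2, at 0.0607 to 0.0982. Those of Klhl40, Asb5, Cacng1, Cryab and Hspb6 were also lost without control tumor 1 (0.0548 to 0.0874), and those of Klhl40, Asb5 and Cryab without control tumor 3 (0.0523 to 0.0895).

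Markers of other cell types moved with some of these libraries. As above, 2.20% of all genes tested were called higher and 3.18% lower. Of 14 adipocyte markers 0 of 5 tested were called. Of these 5, 4 had a fold change above 0, and 1 was below all controls in all tumors labelled Cd276KO. The 14 summed to 48.2, 31.6 and 45.4 in the controls and 36.2, 100 and 153 CPM in the tumors labelled Cd276KO. A subset, Adipoq, Plin1, Cidec and Lep, was not planned as a list. Its sum was 0.121, 0.0469 and 0.209 in the controls and 0.111, 4.85 and 10.2 CPM in the tumors labelled Cd276KO. Each sum was highest in tumors 2 and 3 labelled Cd276KO, which had most muscle RNA. Car3, a carbonic anhydrase of fat and muscle, was at 8.70, 0.328 and 0.104 CPM in the controls and 7.62, 38.3 and 58.3 CPM in the tumors labelled Cd276KO, again highest in those tumors. The 10 fibroblast markers summed to 17996, 5937 and 537 in the controls and 3652, 6483 and 5328 CPM in the tumors labelled Cd276KO, with 0 called and control tumor 1 the highest. The 10 macrophage markers summed to 2167, 1563 and 1299 in the controls and 605, 1164 and 945 CPM in the tumors labelled Cd276KO, and 2 of 10 fell, Itgam by 1.93 and Cd68 by 0.83 on the log2 scale. Of 8 nerve and Schwann markers 2 fell, Mbp by 1.37 and Cadm4 by 0.97, while the list sum ran from 110.4 to 139 CPM. The 4 calls were lost without control tumor 1 or any 1 of the tumors labelled Cd276KO (edgeR adjusted p 0.0553 to 0.175), and those of Cd68, Mbp and Cadm4 also without control tumor 2 (0.0651 to 0.0718). Of 10 smooth muscle markers only Des was called, which the regeneration list also holds, and the list median was -1.07. Epidermis, hair follicle, endothelial and T cell lists had 0 called of 2, 2, 10 and 7 tested, and the epidermis markers were high in control tumor 3 alone, where muscle genes were low. The part of these cell types in the muscle gene values was not tested.

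In the cultures, which give the background, 29 of the 33 genes were under 1 CPM in all 12 libraries. The other 4 were Eno3, Ankrd1, Mylpf and Pygm. In HM-1 cultures 5 members could be tested, of which 1 was higher and 1 lower with the label Cd276KO, where 11.6% of 12457 genes were higher and 16.1% lower. Ankrd1 fell from 18.2, 15.6 and 14.7 CPM in controls to 8.40, 7.38 and 7.84 CPM (log2 fold change -0.99 ± 0.12 SE, adjusted p = 0.00177 in edgeR). Ttn rose from 0.170, 0.316 and 0.169 to 0.525, 0.973 and 0.773 CPM, all far below its levels in tumors 2 and 3 labelled Cd276KO (log2 fold change 1.77 ± 0.39 SE, adjusted p = 0.0170 in edgeR), and was not called without control library 3 or library 2 or 3 labelled Cd276KO (adjusted p 0.0570 to 0.0683). In ID8 cultures 4 of 5 members tested were higher, against a background of 29.4% higher and 31.3% lower. Ankrd1 rose from 94.1, 91.7 and 79.9 to 149.8, 158 and 156 CPM (log2 fold change 0.88 ± 0.06 SE, adjusted p = 2.25e-11 in edgeR). Eno3 rose from 22.4, 23.3 and 25.7 to 39.7, 40.5 and 40.2 CPM (log2 fold change 0.83 ± 0.07 SE, adjusted p = 9.68e-10 in edgeR). Pygm and Mylpf rose with log2 fold changes of 1.18 (SE 0.34, edgeR adjusted p = 0.00499) and 0.42 (SE 0.17, edgeR adjusted p = 0.0370). Pygm lost its call without library 1 labelled Cd276KO (adjusted p 0.0608), and Mylpf without control library 1 or 2 or library 2 labelled Cd276KO (0.0937 to 0.205) and in DESeq2 (0.138).

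Tumors were also set against HM-1 cultures of the same label. In controls 10 members could be tested: Neb, Ryr1, Tnni2 and Ttn were higher in tumors and Eno3 lower, where 25.3% and 16.6% of 14609 genes were called. These 4 were among 7 members that the cultures alone would not have brought past the filter. Neb had a log2 fold change of 3.16 (SE 0.56, edgeR adjusted p = 0.00456), and Eno3 one of -0.82 (SE 0.18, edgeR adjusted p = 0.00988). Tnni2 was lost without any 1 of the control cultures (adjusted p 0.0520 to 0.0571), and Ttn without any of these or control tumor 1 (0.0685 to 0.112). Without control culture 2, control culture 3 or control tumor 1, 3 members were called (2 higher and 1 lower) of 14, 13 and 7 tested. Over all genes these fits called 4336 of 15363, 4384 of 15363 and 5507 of 14774. Without control tumor 2, 9 of 14 members were called (8 higher, 1 lower), against 4776 of 14920 genes. Without control tumor 3, 8 of 11 were called (6 higher, 2 lower), against 7072 of 15211 genes. With the label Cd276KO, 29 of 32 members tested were higher in tumors and 1, Eno3, lower with a log2 fold change of -0.92, against 41.2% and 34.5% of 14330 genes. Of the 32, 27 passed the filter only through the tumors, so that their direction was fixed by it and the count is a description. Where the cultures held 0 counts, the tumors were at least 2476-fold higher for Myh1, 1261-fold for Tnnt3 and 629.7-fold for Hspb7, taking 3 counts over the group as the floor. Myh4, also with 0 counts in these cultures, missed the threshold (edgeR adjusted p = 0.0639), and Ankrd1 was level with the cultures (log2 fold change -0.0037, SE 0.28). Both comparisons share libraries with the tumor comparison.

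The difference between the effect of the label in tumors and in HM-1 cultures passed the test for 1 of 32 members, Csrp3, where 1.72% of 15623 genes were called in that direction and 1.12% in the other. Csrp3 was at 0.170, 0.197 and 0.253 CPM in control cultures and 0, 0.102 and 0.0516 CPM in cultures labelled Cd276KO, so the test rests on a few counts on the culture side. The log2 difference was 7.94 (SE 1.56, edgeR adjusted p = 0.0205). It was not called without control culture 2 or 3 or culture 1 or 3 labelled Cd276KO (adjusted p 0.0527 to 0.0850), nor without the filter on low counts (0.0950) or with a replicate block (0.0553). DESeq2 called 4 of 31 members, against 885 of 15846 genes in either direction. In edgeR, 7 members had an unadjusted p under 0.05. Without tumor 1 labelled Cd276KO, 3 of 32 members and 330 of 16164 genes were called. Without control tumor 1, 4 of 32 members and 446 of 15932 genes were called.

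Over the 6 tumors, 27 of the 33 members had a Pearson correlation above 0.9 with the log2 of the summed level, of which they are themselves a part. Myh2 was at 0.772, and Eno3 at -0.56 and Ankrd1 at -0.33 ran against it. Of 10565 genes outside the muscle lists with a mean of at least 5 CPM, those most like the sum included Srl, sarcalumenin of the sarcoplasmic reticulum (0.990), Mustn1, a small nuclear protein of muscle and bone (0.975), Mylk, myosin light chain kinase (0.963), and Cfd, the adipocyte product adipsin (0.959). Mylk and Cfd are also on the smooth muscle and adipocyte lists. These coefficients describe 6 libraries that share tissue and depth.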

How the data were processed

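The authors deposited raw read counts per gene for 18 libraries in 1 table. HTSeq, STAR, Trim Galore and GRCm38 (mm10) are named per the submitters' processing notes, and the versions, annotation and strandedness were not given in the sources used here. Without strand, reads of the 13 members whose exons overlap a gene on the other strand cannot be told apart from it. All 54752 rows name a gene, and total counts were 17349082 to 30959773.

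Groups came from the sample titles. Each comparison used edgeR 4.0.16 in R 4.3.3 (robust glmQLFit and glmQLFTest, TMM scaling, filterByExpr) on its own libraries (12 for the difference of effects), and a gene was called at a Benjamini-Hochberg adjusted p under 0.05 over all genes tested. The SE is the log2 fold change divided by the square root of F. CPM are per total count, and levels per length divide by the exon length. The fits were tested on simulated data with known changes. Ratios and sums are values without a test. Exact intervals are at 95% and cover counting error only.

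The members and lists were chosen with earlier results of these data known. Values in each tumor were given for each called member and the 2 most abundant of each role, and of other lists for the 2 called genes with the largest fold changes or else the 2 most abundant; the text describes part of these, and some genes are not reported here. Likeness used log2(CPM + 0.5). Alternatives were DESeq2 1.42.0 (adjusted p given as NA stayed NA), other scaling, no filter, 1 fit over all libraries, a replicate block, each library left out and, for tumors, library sizes without muscle genes and limma 3.58.1 voom with sample quality weights.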

Additional observations from a re-analysis of the deposited data

Results flagged for a closer look

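Csrp3 differed between tumors and HM-1 cultures in its response to the label Cd276KO: the log2 difference of the effects was 7.94 (SE 1.56, edgeR adjusted p = 0.0205). The call was lost without the filter on low counts (adjusted p 0.0950), with a replicate block (0.0553) and without any 1 of 4 culture libraries (0.0527 to 0.0850).

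Ankrd1 and Mylpf moved in opposite directions in cultures of the 2 cell lines. For Ankrd1 all HM-1 cultures labelled Cd276KO were below their controls (log2 fold change -0.99) and all such ID8 cultures above theirs (0.88). Mylpf had -0.51 in HM-1 cultures, where it did not pass the test, and 0.42 in ID8 cultures. The differences between the cell lines were not tested.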

How the results depend on the processing

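Of the 826 genes and 6 members called in tumors, the counts were 860 and 6 with DESeq2 size factors in edgeR, 862 and 6 with upper-quartile scaling and 837 and 6 with library sizes without muscle genes, with the same 6 members in each. They were 2270 and 14 in DESeq2, 4001 and 28 in 1 fit over all 18 libraries, 3194 and 3 in limma voom, and 963 and 2 without the filter. Leaving out 1 library gave 0 to 1685 genes and 0 to 11 members. In limma voom the log2 fold changes of Eno3 (0.0043) and Ankrd1 (0.23) turned sign, and that of Eno3 ran from -0.14 to 0.053 with 1 library left out. The cause of these shifts was not tested.

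With 1 library left out, HM-1 cultures gave 1725 to 7491 genes and 1 to 3 members (main 3452 and 2). Control tumors against cultures gave 4336 to 7072 genes and 3 to 9 members (main 6107 and 5). The difference of effects gave 225 to 913 genes and 0 to 4 members (main 443 and 1). In 1 fit over all libraries, 16526 genes and 32 members were tested in each comparison, so the counts are on other sets than the main ones. HM-1 cultures had 3431 genes and 1 member called (main 3452 of 12457 and 2 of 5). ID8 cultures had 4260 and 2 (main 7849 of 12932 and 4 of 5). Control tumors against cultures had 9974 and 18 (main 6107 of 14609 and 5 of 10). The difference had 848 and 1 (main 443 of 15623 and 1 of 32). DESeq2 called 9 of 18 members and 7249 of 18798 genes in control tumors against cultures. For the difference it called 4 of 31 members and 885 of 15846 genes. Without the filter, the difference had 0 of 33 members and 431 of 33472 genes called (7 members at an unadjusted p under 0.05).

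A replicate block gave 0 genes and 0 members in tumors (13 members at an unadjusted p under 0.05), and in the other comparisons kept the counts of genes and members within 1.5 times of the main ones, though not the same members: for the difference of effects Csrp3 was lost (edgeR adjusted p = 0.0553) and Abra called (0.0402), and Ttn was lost in control tumors against cultures (0.0831). Same-numbered tumors did not deviate together (correlations of -0.68, 0.03 and -0.11), so the numbers were not taken as pairs.

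Without Eno3 the summed level was 222.6, 15.6 and 29.2 CPM in the controls, and without Eno3, Ankrd1 and Mylpf, chosen after seeing the data, 199, 7.32 and 11.9 CPM. The stress percentage per kb of exon was 10.6, 8.58 and 9.06 in tumors labelled Cd276KO. By counts without Ankrd1, also chosen after seeing the data, it was 7.89 and 11.4 in control tumors 2 and 3 and 8.39 and 11.4 in tumors 1 and 3 labelled Cd276KO. Counting error limits control tumors 2 and 3, where 30 and 26 of the 33 genes were under 1 CPM.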

Other observations

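Some muscle genes outside the 33 were too low or too variable for a call but differed in counts. The fusion genes Mymk and Mymx, whose products join myoblasts into fibers, had 8 and 7 counts in the 3 tumors labelled Cd276KO and 0 in the 3 controls, at least 2.96-fold and 2.59-fold higher with 3 counts over the group as the floor. Mstn, myostatin, an inhibitor of muscle growth, had 21 counts against 3 (ratio 7.76, counting interval 2.32 to 40.6). Trim63, a ubiquitin ligase of muscle atrophy, was at 0.324, 0.0938 and 0 CPM in the controls and 1.17, 2.68 and 1.73 CPM in the tumors labelled Cd276KO (log2 fold change 3.65 ± 0.83 SE, adjusted p = 0.0542 in edgeR). Fbxo32, the other main ligase of atrophy, was at 4.94, 4.69 and 2.55 CPM in the controls and 6.01, 6.77 and 5.76 CPM in the tumors labelled Cd276KO (log2 fold change 0.65 ± 0.30 SE, adjusted p = 0.228 in edgeR). Myh7, the slow myosin heavy chain, stayed at 0.0469 to 0.243 CPM in all 6 tumors. These genes were chosen after their values were seen.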
